A study of Homo sapiens with 12 samples.

Results

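NRXN3, GHR, TRIM58, ADGRE2, SLC5A5 and C4orf19 are 6 of the 27011 genes in count tables of mRNA and ribosome footprints from HEK293T cells. They were picked from those same tables because their mRNA differed many-fold between genotypes while their footprint counts moved little. The choice used no numeric threshold, so the changes of these genes are given below as descriptions and carry no test. The label held in part: NRXN3 footprints were 2.05-fold lower in 4EHP-null cells and SLC5A5 footprints were 2.29-fold higher in GIGYF1/2-null cells, while the other genes stayed within 1.43-fold of WT.

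HEK293T cells descend from human embryonic kidney. The groups, as labelled, were 4EHP-null, lacking the cap-binding protein that EIF4E2 encodes, GIGYF1/2-null, lacking its scaffold partners GIGYF1 and GIGYF2, and wild type (WT). Each genotype had 2 untreated libraries of RNA-seq and 2 of ribosome profiling (Ribo-seq), 12 in all, from cells harvested 24 h after plating on 15 cm dishes. The labels do not say how many clones each null line stands for, so clone and genotype cannot be told apart.

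Ribosome profiling sequences the short mRNA fragments that translating ribosomes shield from nuclease. For most genes the number of footprints rises and falls with the amount of mRNA, since a ribosome needs an mRNA to sit on, and the ratio between both is read as translation efficiency (TE). Reads placed on a gene in a Ribo-seq library can also stem from other RNA fragments of the same size or from near-identical sequence elsewhere. 4EHP binds the mRNA cap without starting translation and, with the GIGYF proteins, is known for repressing the mRNAs to which it is recruited.

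The proteins of the 6 genes have unrelated jobs, and most are known from other tissues. NRXN3 encodes neurexin 3, a presynaptic adhesion protein that binds neuroligins. GHR is the growth hormone receptor, which signals through the kinase JAK2 and the transcription factor STAT5. ADGRE2 is an adhesion G protein-coupled receptor of myeloid cells, SLC5A5 the sodium-iodide symporter of the thyroid, and TRIM58 a ubiquitin ligase known in mouse red cell precursors for targeting dynein. C4orf19, now named PGCKA1, is named for its association with PDCD10 and the GCKIII kinases.

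The libraries held 26143118 to 38175701 RNA-seq counts and 6536493 to 10816080 Ribo-seq counts. EIF4E2 mRNA was at 51.0 and 46.7 CPM (reads per 1e6 of the scaled library total) in 4EHP-null cells, against 123 and 123 CPM in WT cells. GIGYF1 mRNA was at 22.4 and 26.0 CPM in GIGYF1/2-null cells, against 41.2 and 40.8 CPM in WT cells. GIGYF2 mRNA was at 96.7 and 81.8 CPM in GIGYF1/2-null cells and 81.2 and 66.1 CPM in WT cells. GIGYF1 footprints were at 1.70 and 2.74 CPM in GIGYF1/2-null and 8.69 and 6.72 CPM in WT libraries. GIGYF2 footprints were at 81.6 and 51.7 CPM in GIGYF1/2-null and 90.8 and 63.9 CPM in WT libraries, which overlapped. The counts thus do not show a loss of GIGYF2, and neither assay measures protein. GIGYF1/2-null is used here as the label of those libraries. All 6 of 6 HEK293T markers passed 1 CPM of mRNA. RNA-seq libraries differed in the small non-coding RNAs RMRP and RPPH1. RMRP was at 0.428 and 186 CPM in 4EHP-null, 4.50 and 14.0 CPM in GIGYF1/2-null and 0.508 and 1.24 CPM in WT libraries. RPPH1 was at 0.825 and 204 CPM in 4EHP-null, 5.82 and 15.3 CPM in GIGYF1/2-null and 0.746 and 1.67 CPM in WT libraries. Replicate 2 of 4EHP-null was the farthest from the rest, so the 4EHP-null mRNA changes of the 6 genes are also given without it.

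The surface receptors NRXN3, GHR and ADGRE2 come first. NRXN3 mRNA was at 0.306 and 0.305 CPM in 4EHP-null libraries, 6.96 and 8.07 CPM in GIGYF1/2-null libraries and 9.63 and 12.3 CPM in WT libraries. Its footprints were at 6.77 and 7.36 CPM in 4EHP-null libraries, 12.5 and 12.4 CPM in GIGYF1/2-null libraries and 15.7 and 13.5 CPM in WT libraries. In both assays the 4EHP-null libraries lay below all others without overlap, and the GIGYF1/2-null libraries lay below WT. For scale, both 4EHP-null libraries lay below both WT libraries for 29.1% of genes in mRNA and 26.8% in footprints, and both GIGYF1/2-null libraries did for 26.2% and 23.7%. In 4EHP-null cells its mRNA was 35.6-fold lower than in WT cells, with a log2 fold change of -5.15 ± 0.26 (standard error, 2 libraries per genotype, as for all changes below), and -5.15 without replicate 2. Its footprint log2 fold change was -1.03 ± 0.19.

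In counts, the 4EHP-null mRNA libraries held 10 and 8 NRXN3 reads, against 284 and 458 reads in WT libraries. The footprint libraries held 43 and 54 reads in 4EHP-null cells, against 108 and 143 reads in WT cells. Footprints were thus several times more numerous than mRNA reads in 4EHP-null cells although the Ribo-seq libraries were the shallower ones. The NRXN3 changes in GIGYF1/2-null cells were small in both assays, -0.55 ± 0.16 in mRNA and -0.22 ± 0.17 in footprints.

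GHR mRNA was at 0.520 and 0.686 CPM in 4EHP-null libraries, 4.50 and 4.65 CPM in GIGYF1/2-null libraries and 2.47 and 1.72 CPM in WT libraries. The 3 genotypes did not overlap in mRNA, with GIGYF1/2-null highest and 4EHP-null lowest, an order that 5.97% of all genes shared. Both GIGYF1/2-null libraries lay above both WT libraries for 26.8% of genes. Its footprints were at 5.67 and 5.45 CPM in 4EHP-null libraries, 7.04 and 5.40 CPM in GIGYF1/2-null libraries and 5.22 and 3.60 CPM in WT libraries, and there both knockouts overlapped each other and lay above WT. Footprints of both 4EHP-null libraries lay above both WT libraries for 24.9% of genes, and those of GIGYF1/2-null libraries for 24.2%. In 4EHP-null cells the log2 fold change was -1.80 ± 0.31 in mRNA (-1.99 without replicate 2) and 0.37 ± 0.28 in footprints. The GIGYF1/2-null change was 1.14 ± 0.25 in mRNA and 0.52 ± 0.26 in footprints.

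ADGRE2 had the least mRNA per length of the 6 genes after NRXN3 in 4EHP-null cells and even footprints. Its mRNA was at 0.0611 and 0.305 CPM in 4EHP-null libraries, 1.42 and 2.60 CPM in GIGYF1/2-null libraries and 1.22 and 0.834 CPM in WT libraries. The lowest 4EHP-null value rests on 2 reads. Footprints were at 8.50 and 11.5 CPM in 4EHP-null libraries, 10.2 and 10.1 CPM in GIGYF1/2-null libraries and 8.26 and 7.85 CPM in WT libraries, each knockout lying above WT by a narrow margin. In 4EHP-null cells the mRNA log2 fold change was -2.54 ± 0.62, and it was -1.72 without 4EHP-null replicate 1 and -3.97 without replicate 2. The footprint log2 fold change in 4EHP-null cells was 0.32 ± 0.21. The GIGYF1/2-null values were 0.99 ± 0.43 in mRNA and 0.33 ± 0.20 in footprints.

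SLC5A5, the transporter, had 0.550 and 0.343 CPM of mRNA in 4EHP-null libraries, 10.6 and 12.1 CPM in GIGYF1/2-null libraries and 1.73 and 1.24 CPM in WT libraries. Its footprints were at 5.98 and 7.63 CPM in 4EHP-null libraries, 9.34 and 12.8 CPM in GIGYF1/2-null libraries and 5.80 and 4.16 CPM in WT libraries. The GIGYF1/2-null libraries were the highest in both assays, and the 4EHP-null libraries were the lowest in mRNA but above WT in footprints. The log2 fold change in 4EHP-null cells was -1.68 ± 0.32 in mRNA (-1.41 without replicate 2) and 0.49 ± 0.28 in footprints. Against WT, GIGYF1/2-null mRNA was at 2.95 ± 0.22 and footprints at 1.20 ± 0.25 on the log2 scale, the one case among the 6 genes in which both were at least 2-fold above WT.

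TRIM58, the ubiquitin ligase, had 0.947 and 0.343 CPM of mRNA in 4EHP-null libraries, 15.6 and 12.4 CPM in GIGYF1/2-null libraries and 3.32 and 3.15 CPM in WT libraries. Its footprints were at 4.25 and 5.18 CPM in 4EHP-null libraries, 6.19 and 6.55 CPM in GIGYF1/2-null libraries and 5.94 and 4.16 CPM in WT libraries. The genotypes were far apart in mRNA, while in footprints the 4EHP-null values lay between those of the WT libraries. Both GIGYF1/2-null footprint libraries lay above both WT libraries, as they did for 24.2% of genes. In 4EHP-null cells the log2 fold change was -2.26 ± 0.32 in mRNA and -0.06 ± 0.27 in footprints. That mRNA value was -3.22 without 4EHP-null replicate 1 and -1.77 without replicate 2. For GIGYF1/2-null cells it was 2.11 ± 0.22 in mRNA and 0.37 ± 0.25 in footprints.

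C4orf19 differed from the others in that its mRNA was near the floor in WT cells as well. The mRNA was at 0.183 and 0.229 CPM in 4EHP-null libraries, 0.886 and 1.64 CPM in GIGYF1/2-null libraries and 0.203 and 0.188 CPM in WT libraries, and it passed the filter on low counts through the GIGYF1/2-null libraries. Its footprints were at 5.51 and 4.50 CPM in 4EHP-null libraries, 3.88 and 3.72 CPM in GIGYF1/2-null libraries and 3.48 and 3.78 CPM in WT libraries. The group that was high in mRNA overlapped WT in footprints. Both 4EHP-null libraries, whose mRNA overlapped WT, lay above all others in footprints. Both lay above both WT libraries in footprints for 24.9% of genes. The mRNA log2 fold change was 0.06 ± 0.66 in 4EHP-null cells, where no more than 6 reads a library were seen (-0.09 without replicate 2), and 2.67 ± 0.50 in GIGYF1/2-null cells. Footprints were at 0.45 ± 0.26 in 4EHP-null cells and 0.05 ± 0.26 in GIGYF1/2-null cells.

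**Figure D1:**
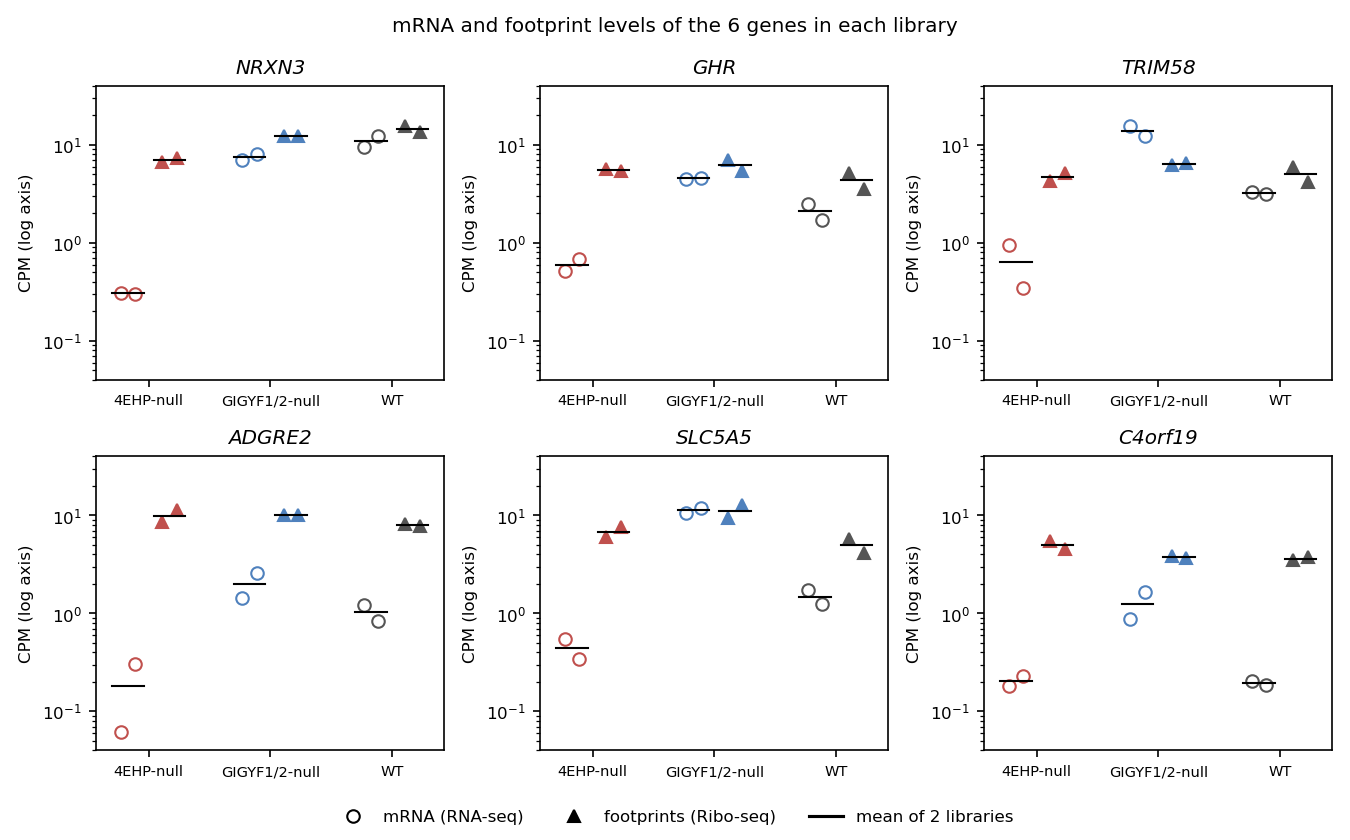
CPM (log axis) of each of the 6 genes by genotype, with 2 mRNA libraries (open circles) and 2 footprint libraries (filled triangles) per genotype and their means as bars. NRXN3 mRNA drops to 0.306 and 0.305 CPM in 4EHP-null cells while its footprints stay at 6.77 and 7.36 CPM, and the footprints of ADGRE2 stay between 7.85 and 11.5 CPM throughout.

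Across all genes, mRNA was called changed in 4EHP-null cells, at an adjusted p under 0.05 in edgeR's quasi-likelihood test, for 13.1% of 15637 genes, and in GIGYF1/2-null cells for 11.9%. Footprints were called changed for 3.04% of 14722 genes in 4EHP-null cells and for 2.09% in GIGYF1/2-null cells. The contrasts that chose the 6 genes are these same ones, so nothing is read from these shares about the 6 genes. TE, the difference between the footprint and the mRNA change, was called for 0.0981% of 13257 genes in 4EHP-null cells and 0.0453% in GIGYF1/2-null cells. All 6 genes passed the filter in both assays.

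The TE change in 4EHP-null cells had a log2 value of 4.13 ± 0.35 for NRXN3, 2.87 ± 0.64 for ADGRE2, 2.22 ± 0.46 for TRIM58, 2.18 ± 0.42 for GHR and 2.18 ± 0.45 for SLC5A5. For C4orf19 it was 0.41 ± 0.67. In GIGYF1/2-null cells the TE values were negative for C4orf19 (-2.60 ± 0.53), TRIM58 (-1.73 ± 0.37), SLC5A5 (-1.73 ± 0.35), ADGRE2 (-0.65 ± 0.45) and GHR (-0.61 ± 0.36). For NRXN3 it was 0.34 ± 0.23. The sign of each TE value was opposite to that of the mRNA change beside it except for C4orf19 in 4EHP-null cells, whose mRNA change was 0.06. Since TE subtracts the mRNA change and the genes were chosen for footprints that moved little, these signs follow largely from the choice. Both knockouts are set against the same WT libraries.

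**Figure D2:**
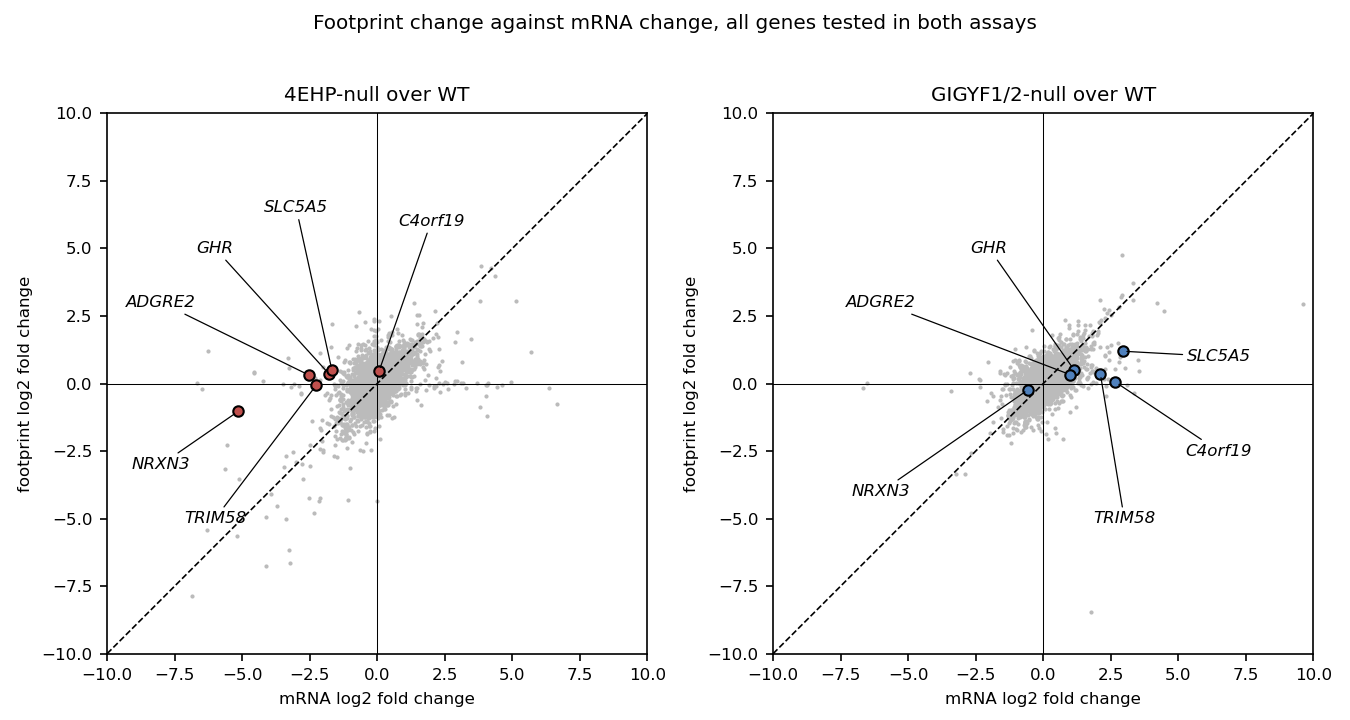
Footprint log2 fold change against mRNA log2 fold change over WT for the 13257 genes tested in both assays (grey), with the 6 genes marked, in 4EHP-null cells on the left and GIGYF1/2-null cells on the right. The dashed line is an equal change in both, and where their mRNA differed by at least 2-fold the footprint change of the 6 genes is, measured vertically, nearer to 0 than to that line, with SLC5A5 in GIGYF1/2-null cells at 1.20 on a mRNA change of 2.95.

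The size of the mismatch can also be given in counts, as a description of the values that chose the genes and not as a test. The WT ratio of footprints to mRNA was applied to the mRNA of each knockout, which gives the footprint counts that proportional behaviour would leave. For NRXN3 in 4EHP-null cells this came to 5.56 counts over both libraries, and 97 were observed, with an exact 95% Poisson interval of 78.7 to 118.3. ADGRE2 had 138 observed against 19.7 scaled, GHR 76 against 17.3, TRIM58 65 against 13.8 and SLC5A5 94 against 20.5. Observed counts were 17.5, 7.02, 4.39, 4.71 and 4.58 times the scaled ones in that order. For C4orf19, with its low mRNA in both groups, 68 counts were observed in 4EHP-null cells (52.8 to 86.2) against 52.3 scaled. These intervals cover counting error of the footprints only, since reads are not independent molecules, and leave out the error of the few mRNA reads.

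In GIGYF1/2-null cells the observed footprints fell short of the scaled counts for each of the genes whose mRNA was above WT. C4orf19 had 74 observed against 457.4 scaled, or 0.162 times. TRIM58 had 125 against 427.6, SLC5A5 222 against 742.4, GHR 119 against 187.7 and ADGRE2 198 against 308.8. NRXN3, whose mRNA was lower than in WT cells, had 243 against 195.4. The WT ratio itself rests on few mRNA reads for C4orf19, 6 and 7 in the WT libraries.

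**Figure D3:**
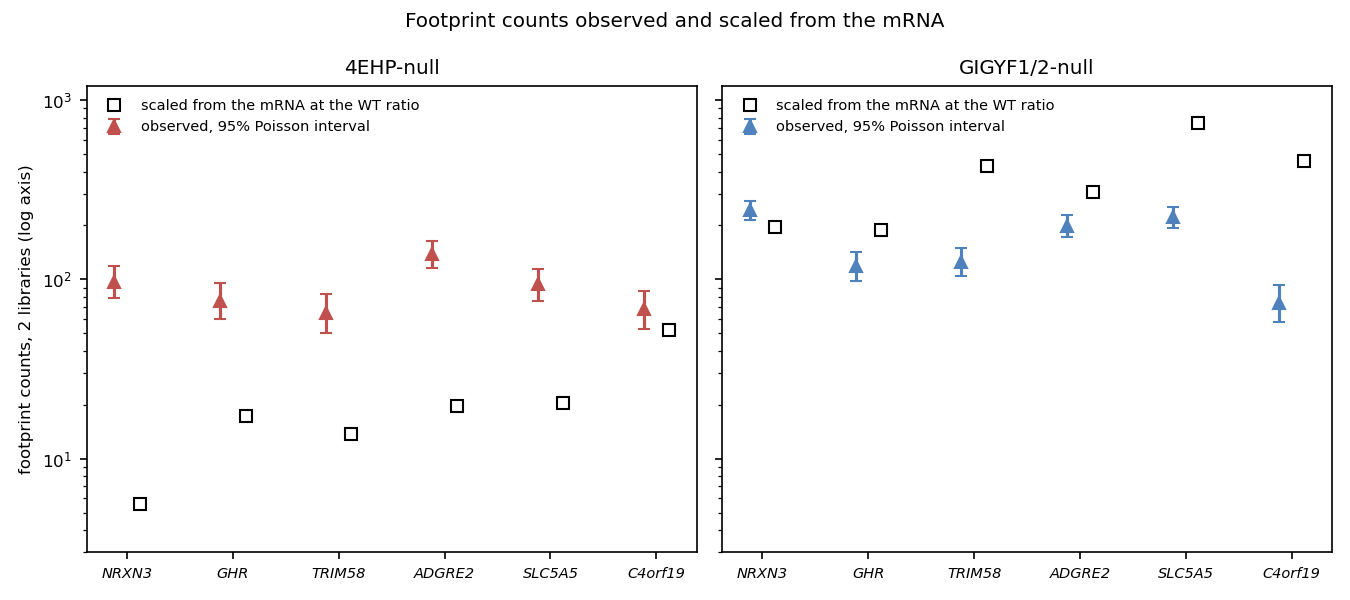
Footprint counts over both libraries of a knockout (log axis), observed with exact 95% Poisson intervals (triangles) and scaled from that knockout's mRNA at the WT ratio (squares). In 4EHP-null cells the observed counts stand above the squares, by 17.5 times for NRXN3 and 1.30 times for C4orf19, and in GIGYF1/2-null cells they stand below for every gene but NRXN3.

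Set between the genotypes with the most and the least mRNA, the footprints moved by a fraction of the mRNA. In 4EHP-null cells 2.78% of the WT level of NRXN3 mRNA was left and 48.4% of its footprints, so that 10.7 CPM less mRNA came with 7.52 CPM fewer footprints, or 0.705 footprint CPM per mRNA CPM. That slope is near the median ratio of all genes, 0.715 in WT cells, and below the WT ratio of NRXN3 itself, 1.33. The slopes of the other genes were lower than both. For the other genes the most mRNA was in GIGYF1/2-null cells. SLC5A5 kept 3.95% of that mRNA level and 61.4% of the footprints in 4EHP-null cells, a slope of 0.394. TRIM58 kept 4.61% of the mRNA and 74.1% of the footprints (0.124), GHR 13.2% and 89.5% (0.165), and ADGRE2 9.09% and 98.4% (0.0885). C4orf19 had its least mRNA in WT cells, with 15.5% of the mRNA and 95.6% of the footprints of GIGYF1/2-null cells (0.157). Footprints left at the lowest mRNA level were 3.63 CPM for C4orf19, 4.72 CPM for TRIM58, 5.56 CPM for GHR, 6.81 CPM for SLC5A5, 7.07 CPM for NRXN3 and 9.98 CPM for ADGRE2.

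The ratio of footprint CPM to mRNA CPM had a median over the 13257 genes of 0.697 in 4EHP-null cells, 0.711 in GIGYF1/2-null cells and 0.715 in WT cells. For NRXN3 it was 23.2 in 4EHP-null, 1.66 in GIGYF1/2-null and 1.33 in WT cells. ADGRE2 was at 54.5 in 4EHP-null, 5.04 in GIGYF1/2-null and 7.85 in WT cells, and C4orf19 at 24.3, 3.01 and 18.5 in the same genotypes. These values put all 6 genes above the 96th percentile in 4EHP-null cells, the lowest being TRIM58 at a ratio of 7.31 and the 96.5th percentile. In WT cells NRXN3 was at the 83.0th percentile and C4orf19 at the 98.4th. TRIM58 in GIGYF1/2-null cells, with a ratio of 0.455, was at the 26.6th percentile, below the median of all genes.

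Non-coding RNAs give a scale for ratios where no long reading frame is present. NORAD was at 0.0110 in 4EHP-null, 0.0132 in GIGYF1/2-null and 0.0108 in WT cells, and TUG1 at 0.0563, 0.0553 and 0.0568. NEAT1 was at 0.0920, 0.103 and 0.0894. Others were high: MALAT1 was at 2.02, 1.5 and 1.39, KCNQ1OT1 at 5.12, 5.11 and 3.72, and FTX at 21.3, 21.6 and 29.6, in the same order of genotypes. High ratios thus occurred on RNAs with no long reading frame too, and the ratios of the 6 genes in 4EHP-null cells lay between those of KCNQ1OT1 and FTX except for NRXN3, C4orf19 and ADGRE2, which lay above FTX. What the footprint reads on those RNAs are was not tested.

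**Figure D4:**
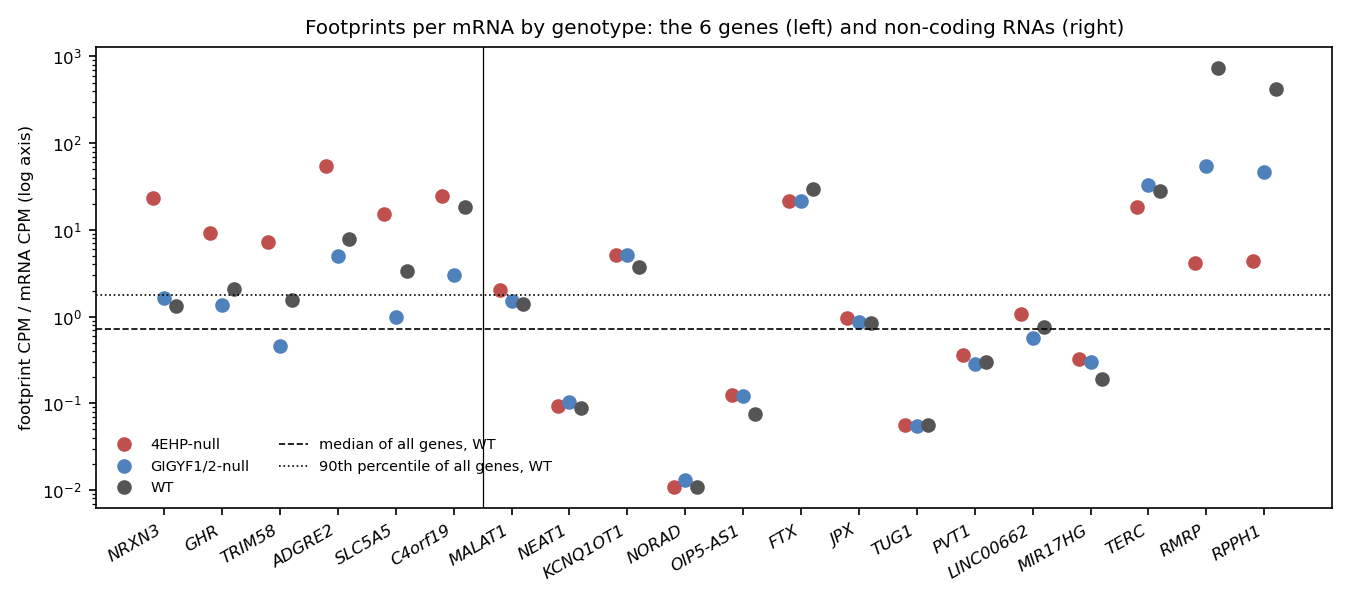
Ratio of footprint CPM to mRNA CPM (log axis) in each genotype for the 6 genes, left of the vertical line, and for non-coding RNAs on the right, with the median and the 90th percentile of all genes in WT cells as lines. The 6 genes reach 7.31 to 54.5 in 4EHP-null cells, while FTX stays between 21.3 and 29.6 in all genotypes. RMRP (4.11 in 4EHP-null, 54.3 in GIGYF1/2-null and 736 in WT cells) and RPPH1 (4.40, 46.9 and 421) range widely. Their 4EHP-null ratios rest on the mRNA of RNA-seq replicate 2. With and without it, the 4EHP-null mRNA log2 fold change was 6.67 and -1.07 for RMRP, and 6.35 and -0.585 for RPPH1.

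Per kilobase of the deposited gene length, the footprints of the 6 genes were low but above those of most coding genes with no more mRNA. In 4EHP-null cells they had 0.491 CPM per kb for NRXN3, 0.905 for GHR, 0.914 for TRIM58, 1.32 for C4orf19, 1.54 for ADGRE2 and 1.90 for SLC5A5. NRXN3 mRNA was at 0.0212 CPM per kb there, and of the 4230 coding genes with no more mRNA, 10.5% had as many footprints per kb. That share was 7.52% for GHR and for TRIM58, 5.22% for C4orf19, 4.27% for ADGRE2 and 3.67% for SLC5A5. Such genes were not filtered on footprints and include 2428 with 0 mRNA counts in all 6 RNA-seq libraries, of which 72.1% had 0 footprints. The median of such genes was 0 footprints. The 6 genes were chosen for footprints that stayed where mRNA changed. Their place above most genes with no more mRNA, many of them without any mRNA reads, follows from that choice and is a description.

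Footprints on coding genes listed at 0 in the mRNA table were found elsewhere too. A 0 there need not be an absence of mRNA: CD99, with 7384 footprint counts, and VAMP7, with 4568, are widely expressed genes and are listed at 0. Among 2428 coding genes of at least 500 bases with 0 mRNA counts in all 6 RNA-seq libraries, 1750 (72.1%) had 0 footprints and 88 had at least 206, the lowest total of the 6 genes. The highest of them, named after their values were seen, were the histone copies HIST2H3A and HIST2H3C, both with 343699 footprint counts, and the cyclophilin copies PPIAL4A and PPIAL4C, both with 58885. Counts identical to another gene in every library were held by 98 of 13421 genes with at least 100 footprints (0.730%), of which 32 had 0 mRNA counts, and by 40 of 14590 genes with at least 100 mRNA counts (0.274%). So copies that were at 0 in the mRNA table carried counts in the footprint table. None of the 6 genes (0 of 6) had counts identical to another gene's in either assay. No source used here states how reads that match several places were counted, and the part of such reads in the footprints of the 6 genes was not tested.

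Close relatives and neighbours differed in how much they were expressed. ADGRE5, whose EGF-like domains are nearly identical to those of ADGRE2, had footprints of 27.6 and 32.4 CPM in 4EHP-null libraries, 28.4 and 28.3 CPM in GIGYF1/2-null libraries and 25.2 and 26.1 CPM in WT libraries. ADGRE2 footprints, like these, were even across genotypes, and whether they include ADGRE5 reads was not tested. ADGRE5 mRNA was at 18.3 and 16.5 CPM in 4EHP-null libraries and 10.8 and 12.6 CPM in WT libraries (log2 fold change 0.57 ± 0.12, edgeR adjusted p = 0.0101), which was no longer called when WT replicate 1 (adjusted p = 0.0886) or 4EHP-null replicate 1 (0.0874) was left out. ZNF333 overlaps ADGRE2, and its footprints were at 4.72 and 5.86 CPM in 4EHP-null, 4.73 and 6.28 CPM in GIGYF1/2-null and 5.51 and 5.01 CPM in WT libraries, with no call in edgeR (adjusted p = 0.973 in 4EHP-null and 0.885 in GIGYF1/2-null cells).

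Of the receptor relatives, PRLR had at most 4 reads a library in either assay, and ADGRE3 had 0 mRNA reads. NRXN2 mRNA was at 8.55 and 8.77 CPM in GIGYF1/2-null libraries and 3.80 and 4.03 CPM in WT libraries, a rise of 1.14 ± 0.16 (adjusted p = 7.88e-04) where NRXN3 was at -0.55. CCDC152, the gene after GHR on chromosome 5, rose in GIGYF1/2-null mRNA by 1.23 ± 0.22 (adjusted p = 0.00324), and its footprints were at 0.849 and 2.57 CPM in GIGYF1/2-null and 0.290 and 0.851 CPM in WT libraries (adjusted p = 0.219). OR2W3, the olfactory receptor gene after TRIM58 on chromosome 1, had mRNA of 0.0611 and 0 CPM in 4EHP-null, 0.317 and 0.702 CPM in GIGYF1/2-null and 0.203 and 0.161 CPM in WT libraries, and 1 footprint in all. RELL1, which overlaps C4orf19, was not called in mRNA (adjusted p = 0.880 in 4EHP-null and 0.349 in GIGYF1/2-null cells) or in footprints (adjusted p = 0.945 and 0.208). No source used here states the strand used in counting, so reads of overlapping genes cannot be told apart.

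Markers of leukocytes, red cells, thyroid and liver were low in mRNA, and those of neurons were not. The 8 leukocyte markers summed to 3.05 CPM of mRNA in 4EHP-null, 3.90 in GIGYF1/2-null and 3.58 in WT cells, with PTPRC at 0 and 1 of 8 above 1 CPM. Their footprints summed to 14.9, 14.9 and 11.0 CPM in the same order. The 9 erythroid markers summed to 0.145, 0.624 and 0.368 CPM of mRNA, with HBG1 at 0, and to 4.34, 6.99 and 7.41 CPM of footprints. The 4 liver markers summed to 0.298, 0.325 and 0.182 CPM of mRNA, with SERPINA1 at 0, and 3 of 5 neuron markers passed 1 CPM. The neuron list summed to 37.7 CPM of mRNA in 4EHP-null, 35.3 in GIGYF1/2-null and 34.2 in WT cells, and to 137 CPM, 155 CPM and 187 CPM of footprints in the same order. The 4 thyroid markers summed to 0.633, 0.748 and 0.485 CPM of mRNA and to 5.59, 4.64 and 4.19 CPM of footprints. The liver list summed to 0.158 CPM of footprints in 4EHP-null, 0.436 in GIGYF1/2-null and 0.120 in WT cells. Its footprint sum was thus below its mRNA sum in 4EHP-null and WT cells and above it in GIGYF1/2-null cells. In the leukocyte, erythroid, thyroid and neuron lists, footprint sums stood above mRNA sums in every genotype. So they did for the HEK293T markers, at 1605 against 882 CPM in 4EHP-null, 1587 against 1137 in GIGYF1/2-null and 2150 against 1216 in WT cells. The highest thyroid marker held that list's whole footprint sum in each genotype. The highest neuron marker held 121 of 137 CPM in 4EHP-null and 174 of 187 CPM in WT cells. The part of such reads in the footprints of the 6 genes was not tested.

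The genes closest to each of the 6 over all 12 libraries were sought among 655 that changed at least 2-fold in mRNA in either knockout, by the root-mean-square difference of centred log2 CPM. TRIM58 and SLC5A5 had each other among their 3 nearest, at 0.407, and both had UPK1B and SP140L. SP140L had 0 and 0 CPM of mRNA in 4EHP-null, 0.633 and 0.731 CPM in GIGYF1/2-null and 0.0678 and 0.108 CPM in WT libraries, with footprints at 3.15 and 3.13 CPM, 4.25 and 5.40 CPM, and 1.88 and 2.65 CPM in the same order. GHR was nearest to PLEKHG4B (0.238), whose mRNA was at 0.275 and 0.267 CPM in 4EHP-null and 1.66 and 1.10 CPM in WT libraries. PLEKHG4B footprints were at 6.77 and 4.63 CPM in 4EHP-null and 6.52 and 4.83 CPM in WT libraries. ADGRE2 was nearest to MSX2P1 (0.337) and MIXL1 (0.337), and C4orf19 to GPR83 (0.386).

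NRXN3 had no neighbour as close. Its nearest was SNX19 at 0.669, with mRNA of 0.153 and 0.0381 CPM in 4EHP-null and 3.80 and 3.58 CPM in WT libraries. SNX19 footprints were at 0.158 and 0.136 CPM in 4EHP-null and 1.74 and 1.89 CPM in WT libraries. So a gene with as steep a loss of mRNA as NRXN3 (log2 fold change -5.13 ± 0.42) had 1 footprint in each 4EHP-null library, against 12 and 20 in WT libraries. NRXN3 had 43 and 54, against 108 and 143. Genes with steeper mRNA losses in 4EHP-null cells went both ways. Footprints stayed for ZNF700 (-6.65 in mRNA and 0.02 in footprints) and FANCF (-6.50 and -0.216). They fell for GALC (-6.84 and -7.88) and SALL3 (-6.29 and -5.42). SNX19 footprints changed by -3.52 ± 0.66 (edgeR adjusted p = 0.0131), a call that ended without any one of the WT or 4EHP-null Ribo-seq libraries (adjusted p between 0.0601 and 0.116) and in DESeq2 (0.0864).

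The promoters of TRIM58 and SLC5A5 are shown because these 2 genes were each among the other's nearest over the 12 libraries of both assays. RefSeq windows of GRCh38.p14, from 250 bases before to 50 bases after a start, were found for 5 of the 6 genes. TRIM58 is at chr1:247856937-247857236 and SLC5A5 at chr19:17871695-17871994, both on the plus strand, written 5′ to 3′. Capitals mark GC boxes (GGGCGG or its reverse CCGCCC) and CCAAT boxes (CCAAT or ATTGG).
TRIM58: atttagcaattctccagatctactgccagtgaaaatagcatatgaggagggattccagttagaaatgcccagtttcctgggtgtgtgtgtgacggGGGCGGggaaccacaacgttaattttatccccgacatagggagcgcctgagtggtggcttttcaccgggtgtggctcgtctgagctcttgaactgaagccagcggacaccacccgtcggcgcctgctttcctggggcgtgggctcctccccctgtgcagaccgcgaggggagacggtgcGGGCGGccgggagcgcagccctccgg
SLC5A5: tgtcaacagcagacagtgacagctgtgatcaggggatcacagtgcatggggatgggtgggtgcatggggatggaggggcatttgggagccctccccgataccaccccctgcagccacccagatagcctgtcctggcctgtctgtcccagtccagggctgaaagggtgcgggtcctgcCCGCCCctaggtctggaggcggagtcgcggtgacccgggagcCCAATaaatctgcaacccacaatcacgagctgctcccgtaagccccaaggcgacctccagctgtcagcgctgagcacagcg
The TRIM58 window holds 2 GC boxes and 20 CG dinucleotides, and the SLC5A5 window 1 GC box, 1 CCAAT box and 12 CG dinucleotides. Neither holds a TATA box (TATAAA or TTTATA) within these letters. Of 35116 RefSeq windows, 45.0% hold a GC box, 34.6% a CCAAT box and 11.5% a TATA box, and the median is 14 CG dinucleotides. The matches are a description and were not tested for binding.

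Over the whole table large mRNA changes were uncommon, but among them footprints within 2-fold of WT were frequent. In 4EHP-null cells 82 genes (0.619% of 13257) were called in mRNA with a change of at least 4-fold. Of these 82, 37 (45.1%, or 0.279% of the 13257) had footprints within 2-fold of WT. The 37 had a median of 1.34 CPM of mRNA in the genotype where it was highest, against 5.41 CPM for the other 45. Leaving out one RNA-seq library changed the count to 10 (WT replicate 1), 15 (WT replicate 2), 62 (4EHP-null replicate 1), 17 (4EHP-null replicate 2), 58 or 57 (GIGYF1/2-null replicates 1 and 2). The 49 genes that fell at least 4-fold had a median log2 fold change of -3.10 in mRNA and -2.28 in footprints. The 33 genes that rose at least 4-fold had medians of 3.80 in mRNA and 0.08 in footprints, and 20 of the 33 had footprints within 2-fold of WT. Those 20 include histone genes, RMRP and RPPH1. With and without 4EHP-null RNA-seq replicate 2, the mRNA log2 fold change was 4.42 and 0.039 for HIST2H3D. It was 4.61 and 1.56 for HIST1H3B and 6.67 and -1.07 for RMRP. The medians of the 33 thus rest in part on that library.

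In GIGYF1/2-null cells 49 genes (0.37% of 13257) passed 4-fold in mRNA, and 16 of them (32.7%, or 0.121% of the 13257) had footprints within 2-fold of WT. Their median mRNA in the genotype where it was highest was 0.978 CPM, against 4.39 CPM for the other 33. The count of 16 was 8 without WT RNA-seq replicate 1 and 9 without GIGYF1/2-null replicate 2. The pseudogene RPLP0P2 was among the 16, with a log2 fold change of 2.31 in mRNA and -0.08 in footprints. Its mRNA call (edgeR adjusted p = 0.0159) ended without WT replicate 1 (0.141), WT replicate 2 (0.0881) or GIGYF1/2-null replicate 2 (0.0936). Among the 37 genes of 4EHP-null cells the highest footprints were on histone genes, led by HIST1H1E with mRNA of 0.306 and 11.1 CPM in 4EHP-null and 0.136 and 0.215 CPM in WT libraries, where replicate 2 stands apart from replicate 1. Its log2 fold change was 4.94 with both libraries and 0.76 without 4EHP-null replicate 2 (edgeR adjusted p = 0.0204 and 0.709), and the call also ended without WT replicate 1 (0.135) or 2 (0.141) and in limma-voom (0.305).

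Partners of the 6 proteins were read from 7 lists, of neurexin ligands, growth hormone signalling, TRIM ligases with a PRY-SPRY domain, cytoplasmic dynein chains, adhesion receptors, the SLC5 family with iodide handling, and the GCKIII and STRIPAK complexes. Of 108 measured in mRNA, 14 rose and 9 fell in 4EHP-null cells, where 6.47% of all genes rose and 6.63% fell. In GIGYF1/2-null cells 10 rose and 12 fell, where 5.2% of all genes rose and 6.75% fell. The 23 calls in 4EHP-null cells were 7 and 14 without WT replicates 1 and 2, and 14 and 10 without 4EHP-null replicates 1 and 2. The 22 in GIGYF1/2-null cells were 7 and 13 without WT replicates 1 and 2, and 12 without GIGYF1/2-null replicate 2. Of 96 measured in footprints 1 rose and 1 fell in 4EHP-null cells (1.58% and 1.46% of all genes), and 2 rose and 1 fell in GIGYF1/2-null cells (0.727% and 1.36%). In TE 0 of 88 were called by edgeR in either knockout, with 3 at an unadjusted p under 0.05 in 4EHP-null (7.19% of all genes) and 0 in GIGYF1/2-null cells (4.29% of all genes), and 0 by DESeq2 or limma-voom.

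Of the growth hormone list, 1 of 18 measured rose and 3 fell in 4EHP-null mRNA. IGF1R, the receptor of the growth factor induced by growth hormone, was at 30.7 and 29.1 CPM of mRNA in 4EHP-null and 69.1 and 64.1 CPM in WT libraries (log2 fold change -1.16 ± 0.09, edgeR adjusted p = 6.65e-06). Its footprints averaged 19.2 ± 1.25 CPM in 4EHP-null and 44.8 ± 3.09 CPM in WT cells (SD, n = 2 libraries; edgeR log2 fold change -1.22 ± 0.15, adjusted p = 0.00132), so here both assays moved together. SH2B1, an adaptor of JAK2, fell in 4EHP-null mRNA by 0.78 on the log2 scale (adjusted p = 6.41e-04). Leaving out either WT replicate 1 or 4EHP-null replicate 2 left 2 of this list's genes called in place of 4. The list had 1 up and 2 down of 18 in GIGYF1/2-null mRNA (3 calls, against 0 when WT replicate 1 was left out and 2 when the second replicate of either group was), and in footprints 1 up and 1 down of 17 in 4EHP-null cells and 1 up and 0 down of 17 in GIGYF1/2-null cells. The one footprint rise in 4EHP-null cells, IGFBP5 (0.77 ± 0.18, adjusted p = 0.0430), ended without any one of the 4 WT and 4EHP-null Ribo-seq libraries (adjusted p between 0.0680 and 0.227).

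Among adhesion receptors 8 of 17 measured rose and 1 fell in 4EHP-null mRNA, with ADGRB2 (0.88 ± 0.10, adjusted p = 2.02e-04) and the cadherin-like CELSR2 (0.54 ± 0.09, adjusted p = 0.00196) up. ADGRG2 fell (-1.93 ± 0.34, adjusted p = 0.00302). The number that rose was 3 with either first replicate of WT or 4EHP-null left out, and 5 with either second replicate left out. In GIGYF1/2-null mRNA 3 rose and 2 fell. When one library was left out, 0 (GIGYF1/2-null replicate 1), 1 (WT replicate 1) or 2 (the second replicate of either) were called in place of 5. In footprints 0 of 16 were called by edgeR in either knockout. Of neurexin partners 3 of 16 rose and 0 fell in 4EHP-null mRNA, and 3 rose and 1 fell in GIGYF1/2-null mRNA, where the adaptor APBA1 rose by 1.45 ± 0.25 (adjusted p = 0.00232). With WT replicate 1 left out, 0 were called in 4EHP-null and 2 in GIGYF1/2-null cells. The number was 2 as well with 4EHP-null replicate 2 left out in 4EHP-null cells, and with replicate 1 of GIGYF1/2-null left out in GIGYF1/2-null cells.

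Among TRIM ligases 1 rose and 2 fell of 19 in 4EHP-null mRNA (3 calls, against 0 to 2 when one WT or 4EHP-null library was left out, with the 0 for 4EHP-null replicate 2) and 2 rose and 0 fell in GIGYF1/2-null mRNA (1 and 0 without WT replicate 1), where TRIM47 rose (1.08 ± 0.14, adjusted p = 4.91e-04). Dynein chains had 1 up and 2 down of 10 in 4EHP-null mRNA and 0 up and 2 down in GIGYF1/2-null mRNA. Of dynein chains in 4EHP-null cells 1 was called when 4EHP-null replicate 1 was left out, and 0 when its replicate 2 or either WT library was. The 2 in GIGYF1/2-null cells became 1 without any one library other than GIGYF1/2-null replicate 1. Of SLC5 and iodide genes 1 of 11 fell in each knockout, the inositol transporter SLC5A3, at -0.36 ± 0.09 in 4EHP-null cells (adjusted p = 0.0204, ended by leaving out any one WT or 4EHP-null library) and -0.64 ± 0.09 in GIGYF1/2-null cells (adjusted p = 7.25e-04). Of the GCKIII and STRIPAK list 0 of 17 were called in 4EHP-null mRNA, and 1 rose and 4 fell in GIGYF1/2-null mRNA. In place of these 5, 1 was called when WT replicate 1 or GIGYF1/2-null replicate 2 was left out, and 2 when WT replicate 2 was. The kinase STK24 was among those that fell (-0.58 ± 0.08, adjusted p = 5.76e-04). All 3 list genes called in GIGYF1/2-null footprints, IGFBP3, TRIM47 and STK24, were no longer called when either WT Ribo-seq library was left out (edgeR adjusted p between 0.0746 and 0.302). TRIM47 was also lost without GIGYF1/2-null replicate 1 (0.0569), IGFBP3 and STK24 without GIGYF1/2-null replicate 2 (0.168 and 0.0675) or either 4EHP-null library (0.0518 to 0.0672).

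The authors' own tables held few of the 6 genes. The authors' deposited mRNA tables, of 11268 genes, list 2 of the 6, TRIM58 at -2.27 and 2.13 and SLC5A5 at -1.68 and 2.96 on the log2 scale in 4EHP-null and GIGYF1/2-null cells. The authors' deposited footprint tables list SLC5A5 alone, at 0.54 and 1.23. In the authors' deposited TE tables SLC5A5 had a TE of 3.81 in 4EHP-null cells against 0.813 in the control, and of 0.273 in GIGYF1/2-null cells against 0.918.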

How the data were processed

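The deposited count tables hold whole-number counts per gene symbol for 6 RNA-seq and 6 Ribo-seq libraries, with a gene length in bases. Per the submitters' processing notes, Bowtie2, TopHat2, edgeR and the build hg19 were used. The counter, the strand setting and the treatment of reads that match several places were not stated in these sources. The authors also deposited comparison tables, with log2 fold changes, p-values and, for TE, ratios per the file headers. RNA-seq was a TruSeq library of total RNA and Ribo-seq followed a published footprinting protocol, per the labels' protocols.

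Counts were fitted with R 4.3.3 and edgeR 4.0.16 (filterByExpr, TMM, quasi-likelihood F-test, two-sided, Benjamini-Hochberg adjusted p under 0.05) over the 6 libraries of an assay, and TE over 12 libraries. DESeq2 1.42.0 and limma 3.58.1 were alternatives. The fits were tested on simulated data. CPM are counts per 1e6 of TMM-scaled totals. Density uses the deposited length. The replicates are said to be biological, but nothing says how cultures were separated, so a p-value covers only the spread between libraries, which may be technical. Of the 27011 symbols, 25576 (94.7%) matched RefSeq GRCh38.p14, used for gene order, class and promoters and not for coordinates of the files.

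The members, gene lists and tests were chosen with earlier results of these data known. Some results that this rule would name are not reported here. Besides the 6 genes, the rule names the targeted genes, relatives, neighbours in gene order, the 3 genes nearest to each in pattern, up to 2 called genes per list and direction by smallest adjusted p, the non-coding RNAs, and up to 5 genes per knockout with a mRNA change of at least 4-fold and a footprint change under 2-fold.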

Additional observations from a re-analysis of the deposited data

Results flagged for a closer look

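The mRNA of 4 of the 6 genes lay on opposite sides of WT in the knockouts, with both 4EHP-null libraries below and both GIGYF1/2-null libraries above both WT libraries. The log2 fold change was -1.80 in 4EHP-null and 1.14 in GIGYF1/2-null cells for GHR, -2.26 and 2.11 for TRIM58, -2.54 and 0.99 for ADGRE2, and -1.68 and 2.95 for SLC5A5. This order was seen for 5.97% of the 15637 genes tested in mRNA. The difference between the knockouts was not tested, both share the WT libraries, and the 6 genes were chosen for their mRNA changes.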

How the results depend on the processing

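Over 570 values of the 6 genes under other settings, 40 moved by more than the spread between replicates and 530 did not. The sign changed where the value was near 0, with C4orf19 mRNA between -0.09 and 0.23 and TRIM58 footprints between -0.33 and 0.22 in 4EHP-null cells. Counts of called genes depended more on the settings. With the replicate number as a block, calls in 4EHP-null cells numbered 3571 in mRNA (2048 without it), 1830 in footprints (448) and 88 in TE (13), and in GIGYF1/2-null cells 3224 (1868), 1747 (307) and 30 (6). Under this block 35, 14 and 13 list genes were called in 4EHP-null mRNA, 4EHP-null footprints and GIGYF1/2-null footprints (23, 2 and 3), and 26 genes in GIGYF1/2-null cells had a 4-fold mRNA change and footprints within 2-fold (16). Deviations of same-numbered libraries correlated at 0.07, 0.18 and 0.153 in mRNA and 0.149, 0.314 and 0.224 in footprints, and with 2 replicates the numbers are not shown to pair libraries. Without a filter on low counts, footprint calls were 1166 in 4EHP-null and 1135 in GIGYF1/2-null cells, with 8 and 11 list genes, TE calls in GIGYF1/2-null cells were 10, and the 37 and 16 genes with discordant changes were 92 and 46. A stricter filter gave 13 and 7 of these, and an 8-fold limit on mRNA 18 and 6. DESeq2 gave 24 and 10 TE calls and 1 list gene in 4EHP-null footprints. With only the 2 genotypes compared, footprint calls were 769 in 4EHP-null and 174 in GIGYF1/2-null cells, list genes 4 and 0, and 4EHP-null TE calls 22. The cause of these shifts was not tested. Leaving out 1 library gave 810 to 2537 calls in 4EHP-null mRNA (list genes 7 to 26), 783 to 1819 in GIGYF1/2-null mRNA (7 to 20), 118 to 751 in 4EHP-null footprints (1 to 4), 59 to 671 in GIGYF1/2-null footprints (0 to 4), 5 to 59 and 1 to 8 in TE, and 10 to 62 and 8 to 22 discordant genes in 4EHP-null and GIGYF1/2-null cells. With the ratio taken from the genotype with most mRNA, observed over scaled footprints in 4EHP-null cells were 6.78 for GHR, 16.2 for TRIM58, 10.9 for ADGRE2, 15.7 for SLC5A5 and 8.01 for C4orf19. The mRNA of the 6 genes rested on as few as 2 reads a library, which limits every ratio in 4EHP-null cells.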
